A study of Mus musculus with 2 samples.

Results

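Insm1, Insm2, Neurod1, St18, Prox1, Myt1 and Runx1t1 were followed across the cells of the mouse esophageal epithelium with and without p63. The 7 genes are listed transcription factors known from neuroendocrine cells, a list made with earlier results of these data known, and all 7 stand among the 32285 genes of the deposited tables. The protein p63, encoded by Trp63, is known as a master regulator of basal cells in layered epithelia. Single cells were profiled at embryonic stage E18.5 in 1 library labelled p63-KO, of the genotype p63-CreER/p63-CreER, and in 1 library labelled WT, from littermate controls that carried p63-CreER, both of the strain C57BL/6. Which part of Trp63 the CreER allele alters is not stated in the labels. Each library held cells with Xist RNA only and cells with Y-linked RNA only (307 and 399 epithelial-like cells in p63-KO, 1458 and 1515 in WT), so each pooled embryos, and no embryo can be told from its littermates. Both kinds of RNA were found in a further 956 epithelial-like cells of p63-KO and 2255 of WT. With 1 library per genotype there was no test and no replicate check. Every interval below is an exact 95% interval for counting error only, and every difference is one between these 2 libraries or between cells of 1 of them.

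Neuroendocrine cells are single hormone- or amine-releasing cells of an epithelium that keep their product in dense granules. They are built in steps in the gut, lung and pancreas: proneural factors such as Neurog3 act in Notch-low progenitors and switch on a second tier of factors, which drive exit from division and the granule and hormone genes. Insm1 and its intronless relative Insm2 encode zinc finger repressors of that second tier, and Neurod1 encodes a bHLH factor that Neurog3 activates in the mouse pancreas. St18 and Myt1 encode zinc finger factors of one family, Prox1 a homeobox factor known also from lymphatic endothelium, and Runx1t1 a corepressor of the ETO family that is known in leukaemia as a fusion partner of RUNX1.

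The genes are spread over 4 chromosomes of mm10 in the GENCODE M21 annotation, and all are protein-coding. Insm1 lies at chr2:146221921-146225020 and Insm2 at chr12:55599427-55602086, each with 1 exon on the plus strand. Neurod1 lies at chr2:79452521-79456751 on the minus strand, where Cerkl overlaps it on the same strand, so reads of that stretch are uncertain. St18 is at chr1:6487231-6860940 (plus), Myt1 at chr2:181763332-181827797 (plus) and Runx1t1 at chr4:13743436-13893649 (plus). Prox1 is at chr1:190118035-190170714 (minus) and shares its locus with the antisense genes Prox1os and Gm28172. No source used here states whether counting used strand.

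The promoter windows of 4 members are shown because the bHLH factor Neurog3, measured below in the same library, binds E-boxes. Binding was not measured here. Each window runs from 250 bases before to 50 bases after a transcription start (RefSeq, GRCm38.p6) and is written 5′ to 3′, with every E-box of the form CANNTG, a palindrome that reads the same on both strands, in capitals. The windows are those of Neurod1 (chr2:79456587-79456886, minus), Prox1 (chr1:190170778-190171077, minus), Myt1 (chr2:181763082-181763381, plus) and Insm2 (chr12:55598667-55598966, plus).
Neurod1: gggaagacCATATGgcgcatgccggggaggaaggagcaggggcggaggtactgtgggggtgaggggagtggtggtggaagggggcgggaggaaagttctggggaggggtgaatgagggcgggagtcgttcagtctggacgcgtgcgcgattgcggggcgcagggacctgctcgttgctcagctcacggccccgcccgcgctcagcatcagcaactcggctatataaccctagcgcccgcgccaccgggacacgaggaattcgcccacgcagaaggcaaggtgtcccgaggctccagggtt
Prox1: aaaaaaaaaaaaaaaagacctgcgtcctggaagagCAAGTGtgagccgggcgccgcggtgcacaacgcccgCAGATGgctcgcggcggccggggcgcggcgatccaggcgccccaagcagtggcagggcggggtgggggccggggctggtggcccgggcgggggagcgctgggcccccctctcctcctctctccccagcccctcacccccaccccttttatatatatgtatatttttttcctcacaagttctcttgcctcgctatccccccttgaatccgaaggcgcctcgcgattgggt
Myt1: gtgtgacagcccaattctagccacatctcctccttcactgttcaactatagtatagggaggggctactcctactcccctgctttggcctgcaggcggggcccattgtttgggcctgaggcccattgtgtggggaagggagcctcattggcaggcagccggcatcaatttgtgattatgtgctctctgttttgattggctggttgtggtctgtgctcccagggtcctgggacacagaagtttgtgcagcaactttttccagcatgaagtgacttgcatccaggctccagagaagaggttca
Insm2: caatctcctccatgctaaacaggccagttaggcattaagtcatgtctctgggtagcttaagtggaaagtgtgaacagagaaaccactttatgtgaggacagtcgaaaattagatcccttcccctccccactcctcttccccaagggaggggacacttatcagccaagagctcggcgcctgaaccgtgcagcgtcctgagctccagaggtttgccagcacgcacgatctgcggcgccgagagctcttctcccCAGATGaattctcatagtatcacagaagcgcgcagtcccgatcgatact
The Neurod1 window holds 1 E-box, CATATG. The Prox1 window holds CAAGTG and CAGATG, the Insm2 window holds CAGATG, and this Myt1 window holds no CANNTG. Prox1 and Myt1 have further windows at other starts, which are not printed: the other Prox1 window holds 0 E-boxes, and the other Myt1 windows hold CATTTG at 2 places and CATGTG at 1. Among all 32851 RefSeq windows, 72.3% hold at least 1 CANNTG, so a match is no mark of these genes. The letters AAGTT or AACTT, the core bound by the Myt1 family, stand in the Neurod1 window, in the Prox1 window and at 2 places in the Myt1 window, and in 39.3% of all windows. No window of Insm1, St18 or Runx1t1 was used here.

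After filtering, 2375 p63-KO cells and 5519 WT cells remained, of which 1678 and 5315 were epithelial-like, with medians of 25228.5 and 11130 UMIs (unique molecular identifiers, 1 per counted RNA molecule). In the epithelial-like cells Trp63 had 118.6 CPM (the gene's share of the summed UMIs, scaled to a total of 1000000) in p63-KO, against 303.6 CPM in WT. The 3' tags may lie outside the altered part of Trp63, so this level is no check of the labels. The libraries shared 8 cell barcodes, 5 of them among the cells kept. Cells were grouped without the 7 members, Chgb, Gzma or other endocrine factors, and 3 of the 10 epithelial states of p63-KO were neuroendocrine-like by their markers. A marker counted if it was found in at least 25% of the cells and was at least 2-fold above the library's other epithelial-like cells. By this rule 8, 9 and, in the Gzma-high state below, 3 of 9 markers counted. The 3 states held 346 cells, 20.6% of the epithelial-like cells, and no WT state was neuroendocrine-like. When both libraries were grouped together, 2 WT cells fell in a cluster of 262 p63-KO cells with Chgb, Pyy and Sst among its top genes. Another 1 WT cell fell in a cluster of 84 p63-KO cells with Gzma and Neurog3 among its top genes. Whether the WT counts of the members come from these cells was not tested. The first of the 3 states, called Chga-high here, had 211 cells with 835.8 CPM of Chga and 2056 CPM of Chgb, both granule proteins. The second, called Sst- and Pyy-high after its summed levels, had 50 cells with 10815 CPM of Sst (somatostatin), 4363 CPM of Pyy (peptide YY) and 7239 CPM of Chgb. Not all of these cells had Sst. Counting cells with at least 5 UMIs of Chgb and of the hormone, 14 of the 50 had Sst and 35 had Pyy. By the same count 13 Chga-high cells had Sst. The third, called Gzma-high, had 85 cells with 94.9 CPM of Gzma, a granzyme, and 49.1 CPM of Chgb, and also 36.8 CPM of Neurog3, the proneural factor of the mouse endocrine pancreas, against 1.01 CPM in the Chga-high state.

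Markers of other cells were read in these 3 states. Of 8 T or NK lymphocyte markers, 0 reached 5 CPM in any of the 3, and their summed level was 3.87 CPM in the Gzma-high state, 0.335 CPM in the Chga-high state and 0 in the Sst- and Pyy-high state. Of 7 enteric neuron markers, 7 reached 5 CPM in the Chga-high state, 4 in the Sst- and Pyy-high state and 4 in the Gzma-high state, with summed levels of 1226, 501.8 and 413.1 CPM. Hand2, a factor of enteric neurons, was at 22.1 CPM in the Chga-high state and at 0 in the other two. The epithelial marker Epcam was at 914.6, 1073 and 1496 CPM in the Chga-high, the Sst- and Pyy-high and the Gzma-high state. Of 6 glia or neural crest markers, 3 reached 5 CPM in the Sst- and Pyy-high state and 0 in the other two, with summed levels of 41.0 CPM there, 8.38 CPM in the Chga-high and 6.46 CPM in the Gzma-high state, while Sox10 was at or below 0.335 CPM in all 3. The part of neuron or glia RNA in the members' levels was not tested.

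Within the epithelium, the members were found almost wholly in the p63-KO library. Insm1 had 1528 UMIs in p63-KO epithelial-like cells (21.2 CPM, 20.2 to 22.3), against 16 UMIs in WT (0.233 CPM, 0.133 to 0.379), a fold of 91.0 (55.9 to 160). St18 had 2603 UMIs (36.2 CPM), against 25 in WT (0.365 CPM), which is 99.2-fold (67.1 to 154). Runx1t1 had 6108 UMIs (84.9 CPM), against 15 in WT (0.219 CPM), which is 388-fold (235 to 694). For these 3 factors the intervals of the 2 libraries lay far apart. Runx1t1 was also high in fibroblast-like cells, of which p63-KO held 517 and WT 10. The part of free RNA from such cells in its fold was not tested. Myt1 had 308 UMIs (4.28 CPM), against 1 UMI in WT, a ratio of 293 whose counting interval ran over 2 orders of magnitude (52.3 to 11629). Neurod1 had 98 UMIs (1.36 CPM), against 0 in WT, and was at least 31.1-fold higher when WT is set at 3 counts over the summed cells. Prox1 was the member with the most WT counts, with 1669 UMIs in p63-KO (23.2 CPM), against 97 UMIs in WT (1.41 CPM, 1.15 to 1.73), which is 16.4-fold (13.4 to 20.3).

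Insm2 had 0 UMIs in p63-KO and 0 in WT, over all barcodes of both libraries. On the log2(CPM + 1) scale, 6 of the 7 members were higher by 2-fold or more in p63-KO than in WT and 0 were lower, while of the 11776 genes with at least 5 CPM in either library 14.1% were higher and 7.89% lower. Only 4 members (Insm1, St18, Prox1 and Runx1t1) reached those 5 CPM over the whole epithelium, and the low levels of Myt1 and Neurod1 are understated by the added 1 CPM, with log2 ratios of 2.38 and 1.24. In a summed epithelium, more cells that express a gene and more RNA per cell cannot be told apart. The states below part the p63-KO cells by kind, but no WT state was neuroendocrine-like, so RNA per such cell is not compared between libraries. CPM summed over a state still mix the share of cells with the level per cell.

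**Figure D1:**
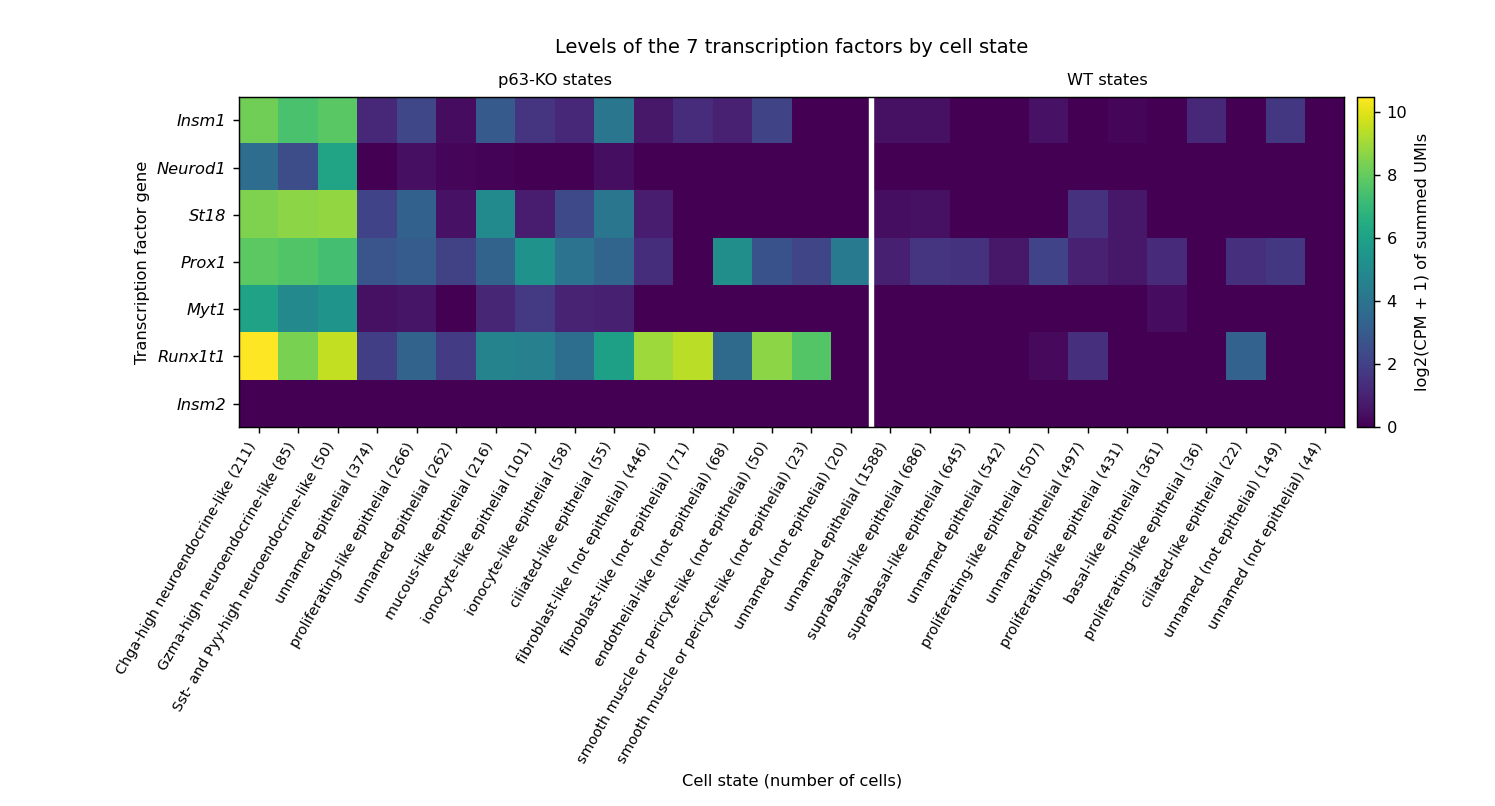
Level of each of the 7 factors, as log2(CPM + 1) of summed UMIs by colour, in every cell state of at least 20 cells, with p63-KO states on the left of the white line and WT states on the right and the number of cells in brackets. The 3 neuroendocrine-like states at the far left stand above the other epithelial states for each of the 6 detected factors, least for Neurod1 in the Gzma-high state, Runx1t1 is also high in fibroblast-like and smooth muscle or pericyte-like states, and Insm2 is at 0 throughout.

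In p63-KO, all 6 detected factors exceeded their level in the other 1332 epithelial-like cells by 2-fold or more in each of the 3 neuroendocrine-like states, though Neurod1 in the Gzma-high state rests on 1 cell. Over genes with at least 5 CPM in either set, 24.1% were at least 2-fold higher in the Chga-high state, 26.9% in the Sst- and Pyy-high state and 14.9% in the Gzma-high state. The depth of these cells was lower than that of the others, with medians of 14007, 13017.5 and 16843 UMIs in the 3 states and 35748.5 UMIs in the other epithelial-like cells. The states differed most in Runx1t1 and Neurod1 and least in St18 and Prox1.

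Insm1, the repressor that marks neuroendocrine cells of many tissues, was at 291 CPM in the Chga-high state (272 to 311), 219 CPM in the Sst- and Pyy-high state (184 to 259) and 179 CPM in the Gzma-high state (158 to 201), against 3.64 CPM in the other epithelial-like cells (3.20 to 4.13). The intervals of the Sst- and Pyy-high and the Gzma-high state overlap, and that of the Chga-high state stands above both. At full depth an Insm1 UMI was found in 92.9%, 82.0% and 62.4% of the cells of the 3 states, against 0.774% of the fibroblast-like cells of p63-KO, a type that should not express it (median 10809 UMIs). With each cell thinned to 2000 UMIs the shares were 46.9%, 32.7% and 27.4% in the 3 states, against 0.457% in other epithelial-like cells and 0 of 511 fibroblast-like cells. By the limit of 3 counts, that 0 allows up to 0.587% of cells with a UMI at this depth, which does not limit the share of cells that express the gene.

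St18 was at 434 CPM in the Sst- and Pyy-high state (384 to 488), 406 CPM in the Gzma-high state (375 to 439) and 347 CPM in the Chga-high state (326 to 369), against 9.94 CPM in the other epithelial-like cells. The 2 highest do not differ beyond their intervals. Of the 6 detected members it alone had a ratio above 1 between the Gzma-high and the Chga-high state, at 1.17 (1.06 to 1.29), below the 2-fold used as a call. Myt1, of the same family, was at 64.0 CPM in the Chga-high state (55.3 to 73.8), 42.6 CPM in the Sst- and Pyy-high state (28.1 to 62.0) and 29.7 CPM in the Gzma-high state (21.7 to 39.6), against 0.659 CPM in the other epithelial-like cells. Neighbouring intervals overlap in that order, while those of the Chga-high and the Gzma-high state do not.

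Prox1 was at 229 CPM in the Chga-high state (212 to 247), 199 CPM in the Gzma-high state (177 to 222) and 163 CPM in the Sst- and Pyy-high state (133 to 197), against 8.61 CPM in the other epithelial-like cells. Neighbours in that order overlap. A Prox1 UMI was found in 83.4% of the Chga-high, 88.2% of the Gzma-high and 64.0% of the Sst- and Pyy-high cells, against 1.35% of the fibroblast-like cells. Thus nearly all Gzma-high cells had Prox1, whereas Runx1t1, below, was found in less of that state.

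Neurod1 had its own order over the states. It was at 69.4 CPM in the Sst- and Pyy-high state (50.4 to 93.2), 12.4 CPM in the Chga-high state (8.73 to 17.1) and 4.52 CPM in the Gzma-high state (1.82 to 9.31), against 0.150 CPM in the other epithelial-like cells. The Sst- and Pyy-high state was 5.60-fold above the Chga-high state (3.53 to 8.92), and Neurod1 was the 1 member of 7 at least 2-fold higher there, where 9.98% of 12195 genes were higher and 9.62% lower. A Neurod1 UMI was found in 38.0% of the Sst- and Pyy-high cells and in 11.8% of the Chga-high cells. All 7 Neurod1 UMIs of the Gzma-high state came from 1 cell, so without that cell the state is at 0.

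Runx1t1 was at 1431 CPM in the Chga-high state (1388 to 1474), 737 CPM in the Sst- and Pyy-high state (672 to 807) and 332 CPM in the Gzma-high state (304 to 362), against 12.8 CPM in the other epithelial-like cells. No 2 of these intervals overlap. The Chga-high cells had a median of 16 Runx1t1 UMIs and 97.2% of them had at least 1, the Sst- and Pyy-high cells a median of 6 with a UMI in 92.0%, and the Gzma-high cells a median of 0 with a UMI in 41.2%. Free RNA cannot be read for this gene from the fibroblast-like cells, which express it, and 11.8% of the endothelial-like cells had a UMI of it (median 11177.5 UMIs).

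**Figure D2:**
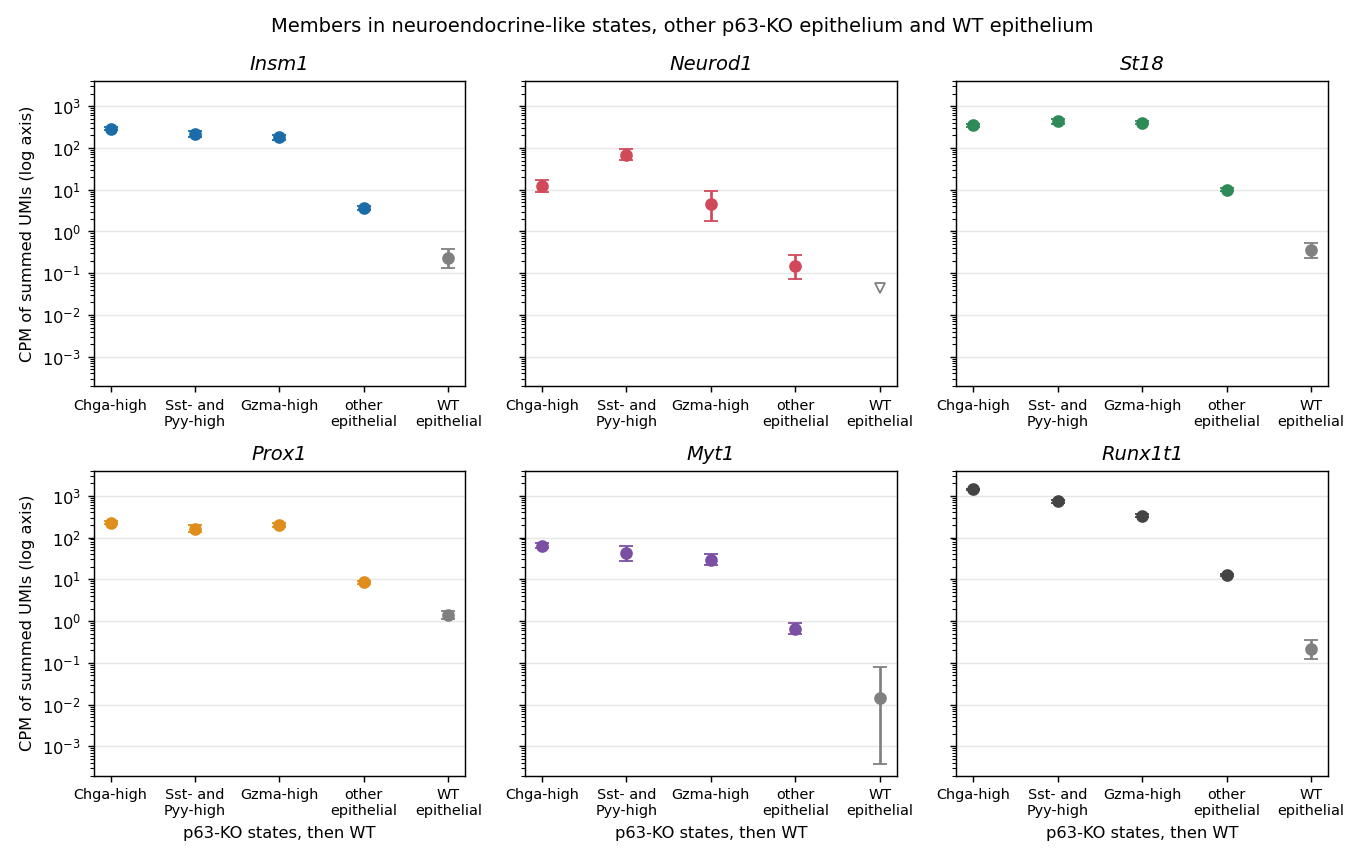
CPM of summed UMIs on a log axis for the 6 detected factors, in the Chga-high, the Sst- and Pyy-high and the Gzma-high state, the other p63-KO epithelial-like cells and, in grey, WT epithelial-like cells. Bars are exact 95% Poisson intervals and the open triangle marks 3 counts where the count was 0; Neurod1 stands at 69.4 CPM in the Sst- and Pyy-high state and Runx1t1 at 332 CPM in the Gzma-high state, its lowest of the 3.

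The Gzma-high and the Chga-high state were set against each other. Of the 7 members 0 were at least 2-fold higher and 3 at least 2-fold lower in the Gzma-high state (Runx1t1, Myt1 and Neurod1), while over 12292 genes 12.4% were higher and 14.5% lower. Runx1t1 was 4.31-fold lower there, Myt1 2.16-fold and Neurod1, with the 1 cell above, 2.74-fold. Insm1 was 1.63-fold lower, and Prox1 stood at a ratio of 0.869 (0.757 to 0.995). Against the Sst- and Pyy-high state, the Gzma-high state was lower by at least 2-fold in 2 members, Runx1t1 (2.22-fold) and Neurod1 (15.4-fold), where 20% of 12531 genes were lower and 16.8% higher.

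The genes around the members differed between these states. Of 16 granule genes all were measured, and 15 were lower by 2-fold or more in the Gzma-high than in the Chga-high state and 0 were higher; their median on the log2 scale was -2.63 beside 0.02 over all genes measured. The prohormone convertase Pcsk2 was at 1.94 CPM in the Gzma-high state, against 430.0 CPM in the Chga-high state. Of the 12 measured Notch genes 7 were higher and 0 lower, with a median of 1.47, among them the receptor Notch2 (57.5 CPM, against 9.72) and the Notch-induced repressor Hes1 (169 CPM, against 19.4). Against the epithelial states that are not neuroendocrine-like, 6 of 12 measured Notch genes were higher and 2 lower, beside 14.9% and 10.8% of all genes. Notch2 and Hes1 were in neither set there. Of the 21 measured other endocrine factors 3 were higher and 9 lower in the Gzma-high than in the Chga-high state. Neurog3 was 36.6-fold higher (11.9 to 183), Hes6 3.58-fold and Sox4 2.24-fold. The 57 Neurog3 UMIs of the Gzma-high state came from few of its cells, 2 of 33 with a Gzma UMI and 10 of 52 without. The Chga-high state had 3 Neurog3 UMIs, and the Sst- and Pyy-high state, where Neurod1 was highest, had 2. Myt1l, the neural relative of Myt1, was at 0 in the Gzma-high state, against 37.9 CPM in the Chga-high state. Among the ETO relatives of Runx1t1, Cbfa2t3 was 7.097-fold higher (271 CPM, against 38.2) and Cbfa2t2 stood at 1.45-fold, below the call, and Runx1, a DNA-binding partner of this family, was 14.6-fold higher (284 CPM, against 19.4). Over the epithelial states that are not neuroendocrine-like, Cbfa2t2 and Cbfa2t3 were called higher, and Runx1 was called neither higher nor lower. Runx1t1 and Cbfa2t3 thus differed between the Gzma-high and the Chga-high state in opposite directions. Of 7 measured Insm1 partners and corepressors, 1, Rcor2, was higher in the Gzma-high than in the Chga-high state. These genes, other than the endocrine factors, could take part in the grouping of cells, so their differences describe the states and are no independent result.

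The Gzma-high state was not uniform. Of its 85 cells 33 had a Gzma UMI and 52 had none, and the 2 sets were of like depth (medians of 17635 and 16279.5 UMIs). Runx1t1 was at 71.6 CPM in the cells with a Gzma UMI (53.3 to 94.1), against 554 CPM in those without (504 to 606), with at least 1 UMI in 8 of 33 and 27 of 52 cells. St18 was at 262 and 528 CPM, Insm1 at 125 and 225 CPM and Myt1 at 14.0 and 43.0 CPM, in each case lower in the cells with Gzma. The share of cells with an Insm1 UMI was alike, 63.6% (21 of 33) and 61.5% (32 of 52). A UMI of St18 was found in 18 of 33 and 32 of 52 cells, and one of Myt1 in 7 of 33 and 19 of 52. Prox1 was closest, at 167 CPM (138 to 200) in the cells with Gzma, against 226 CPM (195 to 261) in those without.

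Split further by Chgb, 22 cells of the state had Chgb without Gzma, 29 had Gzma without Chgb, 4 had both and 30 had neither. In the 22 cells with Chgb only, Runx1t1 was at 1145 CPM (1035 to 1263), against 52.4 CPM (36.3 to 73.2) in the 29 cells with Gzma only, and 21 of the 22 cells had a UMI of it. Insm1, St18 and Myt1 were at 374, 771 and 81.1 CPM in the Chgb-only cells and at 117, 226 and 10.8 CPM in the Gzma-only cells. Prox1 was at 194 CPM (150 to 247) and 163 CPM (134 to 198), whose intervals overlap. Neurog3 had 42 UMIs in 7 of the 22 Chgb-only cells (122 CPM) and 5 UMIs in 1 of the 29 Gzma-only cells (7.70 CPM), so a few cells carry both levels. Cbfa2t3 was at 110 CPM in the Chgb-only and 344 CPM in the Gzma-only cells, found in 11 of 22 and 29 of 29 cells. These sets were chosen after the data were seen, they are small, and 22 cells of 1 library carry no replicate error.

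**Figure D3:**
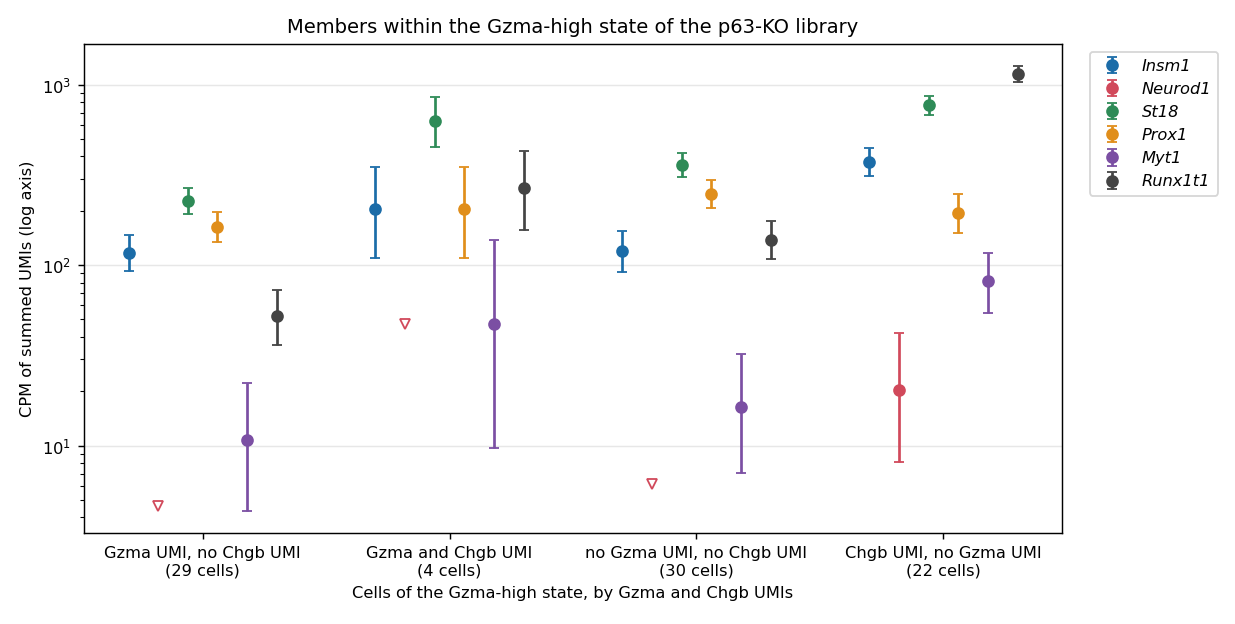
CPM of summed UMIs on a log axis for the 6 detected factors within the Gzma-high state, with cells parted by the presence of Gzma and Chgb UMIs. Bars are exact 95% Poisson intervals, and open triangles mark 3 counts where the count was 0; Runx1t1 stands at 52.4 CPM in the cells with Gzma only and 1145 CPM in the cells with Chgb only, while Prox1 lies between 163 and 248 CPM in all 4 sets.

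The same split was made over the whole p63-KO epithelium, at 5 UMIs of Chgb and of Gzma per cell. It gave 223 cells positive for Chgb only, 12 for Gzma only, 1 for both and 1442 for neither, and 0 WT epithelial-like cells reached 5 UMIs of either. Of the Chgb-positive cells 143 were of the Chga-high, 47 of the Sst- and Pyy-high and 2 of the Gzma-high state, and of the 12 Gzma-positive cells 10 were of the Gzma-high state. The double-negative cells still held 68 Chga-high, 73 Gzma-high and 3 Sst- and Pyy-high cells, so folds against them are smaller than those between states.

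Each of the 6 detected members was higher by 2-fold or more in the Chgb-positive than in the double-negative cells, where 14.5% of 12220 genes were higher and 2.97% lower. Neurod1 was at 14.3 CPM in the Chgb-positive and 0.153 CPM in the double-negative cells, which is 93.6-fold (48.6 to 202). Runx1t1 was 20.8-fold higher (657 CPM, against 31.6), Insm1 14.0-fold (138 CPM, against 9.86), Myt1 13.7-fold (27.9 CPM, against 2.04), St18 9.52-fold (196 CPM, against 20.6) and Prox1 7.59-fold (109 CPM, against 14.3). In the same contrast 17 of 23 measured other endocrine factors were higher and 0 lower, and their median on the log2 scale was 2.67 beside 0.03 over all genes. Among them were Isl1 (54.4 CPM, against 0.567), Myt1l (24.6, against 0.444), Nkx2-2 (27.9, against 0.796) and Hhex (26.2, against 0.980), all known from endocrine cells of the pancreas or gut or from neurons. All 15 measured granule genes were higher, of which Chgb was fixed by the split itself. The corepressors that Insm1 is known to recruit, Kdm1a, Hdac2 and Rcor1, were at ratios of 1.41, 1.29 and 0.890, and Runx1 was lower, at 258 CPM in the Chgb-positive and 549 CPM in the double-negative cells.

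In the 12 Gzma-positive cells, 4 members exceeded the double-negative cells by 2-fold or more and 1 was lower, where 11.2% of 12028 genes were higher and 9.73% lower. Prox1 was at 145 CPM, which is 10.1-fold higher (7.57 to 13.2), Insm1 at 77.5 CPM, 7.86-fold (5.26 to 11.3), and St18 at 119 CPM, 5.78-fold (4.21 to 7.75). Myt1 rested on 2 UMIs, with a ratio of 2.54 (0.304 to 9.34), and Neurod1 was at 0 UMIs against 10. Runx1t1 had 0 UMIs in these 12 cells and was at least 4.08-fold lower, with 3 counts over the 12 cells as the floor, than the 31.6 CPM of the double-negative cells. This direction depends on the split: the log2 ratio was -5.03 here, 1.48 with the split at 1 UMI and 4.59 with the Gzma-high state set against the epithelial states that are not neuroendocrine-like. Set against these 12 cells, the Chgb-positive cells were at least 2-fold higher in 3 of 7 members, Neurod1, Myt1 and Runx1t1, where 17.5% of 12729 genes were higher and 8.47% lower, and Runx1t1 was at least 84.9-fold higher against the same floor.

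Levels were followed over the number of Chgb UMIs per p63-KO epithelial-like cell. Neurod1 was at 0 UMIs in the 1143 cells without Chgb, 0.483 CPM at 1 to 4 UMIs (311 cells), 6.09 CPM at 5 to 19 (149 cells), 21.6 CPM at 20 to 99 (46 cells) and 76.0 CPM at 100 or more (29 cells). Neurod1 was higher in each bin than in the one before. Chgb itself was at 7239 CPM in the Sst- and Pyy-high and 2056 CPM in the Chga-high state, and Neurod1 at 69.4 and 12.4 CPM. Whether the rise of Neurod1 over the bins goes beyond this difference between states was not tested. Runx1t1 was at 7.87, 82.6, 607, 517 and 1554 CPM over the same bins, and Insm1 at 4.42, 23.0, 135, 113 and 238 CPM. Both of these, like St18, Prox1 and Myt1, were no higher at 20 to 99 than at 5 to 19 UMIs. The bins differ in depth and in their cells: the bin of 1 to 4 had a median of 68531 UMIs and 87 of its 311 cells were neuroendocrine-like, 125 of 149 and 38 of 46 were in the next bins, and all 29 in the highest, so a bin of few UMIs mixes deep cells of other kinds with cells of low Chgb.

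**Figure D4:**
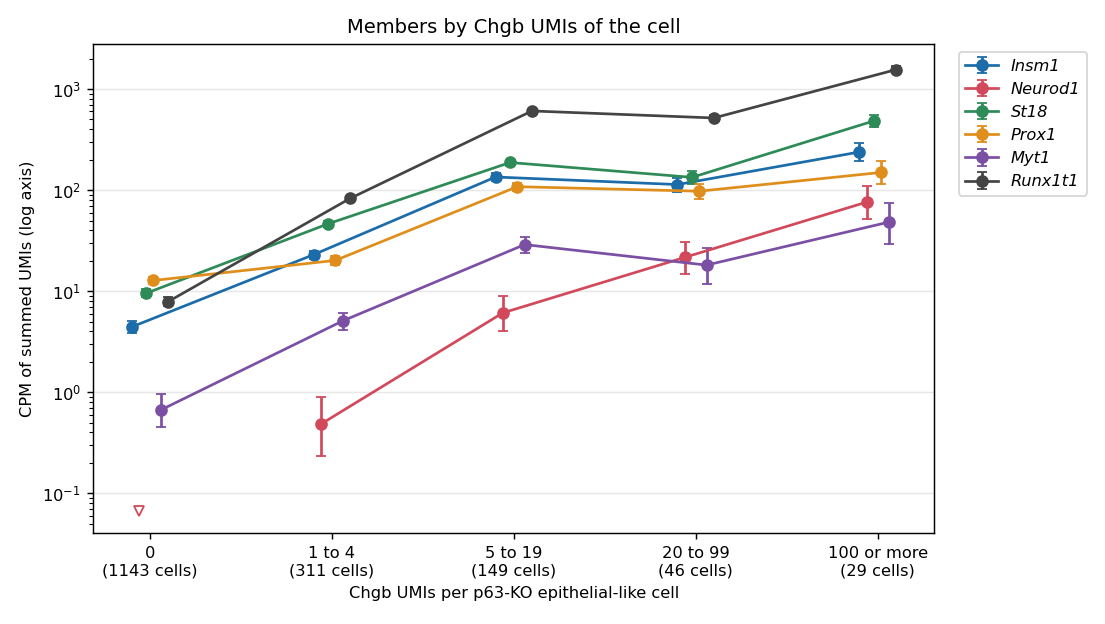
CPM of summed UMIs on a log axis for the 6 detected factors, by the number of Chgb UMIs in a p63-KO epithelial-like cell. Bars are exact 95% Poisson intervals, and the open triangle marks 3 counts where Neurod1 was at 0. Neurod1 climbs over all bins to 76.0 CPM while the other 5 are lower at 20 to 99 than at 5 to 19 UMIs. The bins are not parted by cell state.

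Hormone classes were formed from the Chgb-positive cells with at least 5 UMIs of a hormone gene, and 5 hormones had at least 20 such cells. Some of these cells lie outside the neuroendocrine-like states and are deep: they gave 75.5% of the UMIs of the Sst class (10 of 37 cells) and 74.8% of those of the Pyy class (12 of 47 cells). Levels are therefore given within the neuroendocrine-like states, a restriction chosen after seeing the data. There Neurod1 was at 65.9 CPM in 35 Pyy cells (44.4 to 94.0), 61.3 CPM in 33 Iapp (amylin) cells (41.7 to 87.1) and 60.05 CPM in 30 Cck (cholecystokinin) cells (40.5 to 85.7). It was at 17.7 CPM in 144 Calca (calcitonin gene) cells (12.6 to 24.4) and, from 4 UMIs, at 10.6 CPM in 27 Sst cells (2.88 to 27.0). The intervals of the first 3 classes overlap one another and lie above those of the Calca and Sst classes. The classes also differ in state. All 35 Pyy cells were of the Sst- and Pyy-high state, and 118 of the 144 Calca cells were of the Chga-high state. The Chga-high and the Sst- and Pyy-high state held 19 and 14 of the Iapp, 13 and 16 of the Cck and 13 and 14 of the Sst cells. The part of state in these levels was not tested. Without the restriction Pyy cells were at 17.7 CPM and Sst cells at 3.23 CPM. The classes share cells, for example 24 of all Chgb-positive cells were in both the Sst and the Pyy class, so they are no separate groups.

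Chgb-positive cells outside the neuroendocrine-like states stood apart in depth. There were 32 of them, with a median of 109940 UMIs, against 34572.5 UMIs in the other cells of these states, and 12 were ciliated-like, 11 proliferating-like, 8 mucous-like and 1 of an unnamed state. They had 27.1 CPM of Insm1 and 111 CPM of Runx1t1, against 2.34 and 7.39 CPM in the other cells of these states. Whether these deep barcodes hold more than 1 cell was not tested. Among the 216 mucous-like cells, St18 was at 30.2 CPM and Runx1t1 at 24.9 CPM, and at 19.6 and 12.9 CPM without the 8 Chgb-positive cells.

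Detection of several members in the same cell was compared at 2000 UMIs per cell. At least 3 members had a UMI in 34.8% of the Chga-high cells (28.3 to 41.7), 32.7% of the Sst- and Pyy-high cells (19.9 to 47.5) and 21.4% of the Gzma-high cells (13.2 to 31.7). The other 1314 p63-KO epithelial-like cells had 0 such cells, which by the limit of 3 counts allows up to 0.228% of cells at this thinned depth, and 511 fibroblast-like cells had 0. In WT it was 1 of 5268 epithelial-like cells. At full depth the shares were 93.4%, 92.0% and 52.9% in the 3 states, against 5.86% in the other p63-KO epithelial-like cells and 3 of 5315 cells in WT. In the Gzma-high state at this thinned depth, St18 was found in 69.2% of 26 cells with a Runx1t1 UMI and in 25.9% of 58 cells without, and Myt1 in 26.9% and 0% of them.

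**Figure D5:**
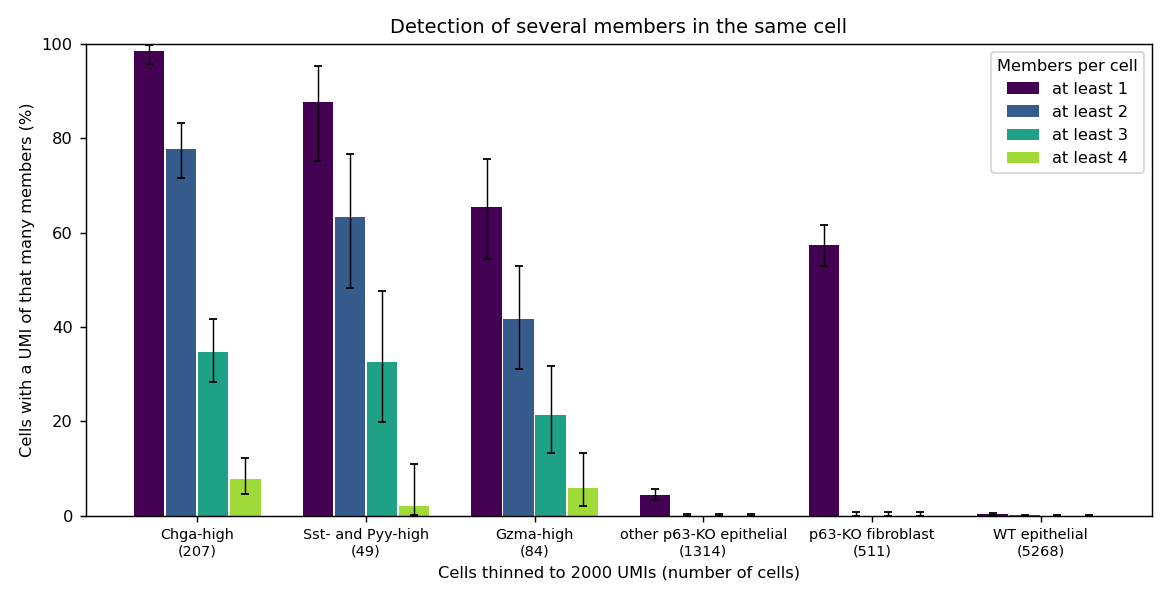
Share of cells, in percent, with a UMI of at least 1, 2, 3 or 4 of the 7 members after thinning each cell to 2000 UMIs, in the 3 neuroendocrine-like states, other p63-KO epithelial-like cells, p63-KO fibroblast-like cells and WT epithelial-like cells. Bars carry exact 95% binomial intervals; at least 3 members were found in 34.8% of the Chga-high cells, and the 57.3% of fibroblast-like cells with at least 1 member had at most 1.

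Outside the epithelium the members parted. Runx1t1 was at 511 CPM in 517 p63-KO fibroblast-like cells (492 to 529) and at 365 CPM in 73 smooth muscle or pericyte-like cells, so 30.7% and 5.49% of all its p63-KO UMIs in kept cells came from there. In WT, 10 fibroblast-like cells held 14 of the 29 Runx1t1 UMIs of that library (287 CPM, 157 to 481). The neuroendocrine-like states gave 54.6% of the Runx1t1 UMIs of p63-KO, against 83.6% for Insm1, 89.8% for Neurod1, 85.7% for Myt1, 74.3% for St18 and 63.4% for Prox1. Insm1 and St18 were both at 0.692 CPM in the fibroblast-like cells, and Neurod1 and Myt1 were at 0 UMIs there.

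Prox1 was also found in ionocyte-like and endothelial-like cells. It was at 39.6 CPM in 101 ionocyte-like cells (32.2 to 48.2) and 15.1 CPM in a second ionocyte-like state of 58 cells (11.6 to 19.4), against 3.18 to 9.73 CPM in the other epithelial states that are not neuroendocrine-like. In 68 endothelial-like cells it was at 35.3 CPM (25.01 to 48.5). These cells had 71.6 CPM of Flt4, a receptor of lymphatic endothelium, while Ccl21a and Reln, also markers of it, were at 0. In WT, 1 endothelial-like cell held 3 Prox1 UMIs, and the highest WT epithelial state, a proliferating-like one, had 3.37 CPM (1.92 to 5.47).

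Genes of like pattern were taken by the correlation of log2(CPM + 1) over the 16 p63-KO states, among 11933 genes, as a description with no test, since states share a library and many genes are high in the same 3 states. Insm1 was most like Cntnap5b (r = 0.988), Tnr and Mapk8ip2, and Neurod1 most like the granule gene Vgf (0.992), 1700042O10Rik and the endocrine factor Nkx2-2 (0.987). St18 was most like Ffar2 (0.977), Skap1 and Nxph1, Runx1t1 most like Sobp (0.977), Podxl2 and Macrod2, and Prox1 most like Cnot7 (0.925), Fgd2 and Syt7. Myt1 was most like Prox1os (0.996), the antisense neighbour of Prox1, followed by Golga7b and Elavl3, while Myt1 and Prox1 themselves were at 0.858. Prox1os was absent from the 3 genes most like Prox1, which was also found in ionocyte-like and endothelial-like cells. Among the members, Insm1 and St18 were the most alike (0.951) and Prox1 and Runx1t1 the least (0.173).

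The members were also read in cells of the neuroendocrine-like states with Xist RNA only (117 cells) and with Y-linked RNA only (103 cells). Over the 3 states together Runx1t1 was at 926 CPM (880 to 974) with Xist RNA and 1258 CPM (1202 to 1317) with Y-linked RNA, and the intervals lie apart. Insm1 was at 240 CPM (217 to 265) and 291 CPM (264 to 320). St18 was at 402 and 395 CPM in these sets, but this hides differences of opposite direction by state. In the Chga-high state St18 was at 382 CPM (343 to 423) with Xist RNA and 288 CPM (256 to 324) with Y-linked RNA. In the Gzma-high state it was at 429 CPM (374 to 490) in 31 cells and 702 CPM (613 to 799) in 23 cells, and Runx1t1 at 312 and 624 CPM. Prox1 was at 217 and 224 CPM over the 3 states, and at 123 CPM (80.03 to 180) in 17 and 257 CPM (184 to 349) in 13 Sst- and Pyy-high cells. The number of embryos behind these sets is unknown.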

How the data were processed

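Each library was deposited as counts, that is raw UMI counts per gene and barcode. Per the labels' protocols, epithelium was freed with dispase and trypsin and a 3' droplet kit was used. The submitters' processing notes name Cell Ranger 7.1.0 and mm10; cell calling and intron counting were not given. The p63-KO library held 2821 barcodes and 86504624 UMIs, the WT library 6034 and 76472445. Kept were barcodes with at least 500 genes and 1000 UMIs and no more than 10% mitochondrial UMIs (2422 and 5787), less the highest doublet scores at 0.8% per 1000 cells (47 and 268). Clustering used 2000 variable genes, 30 components, 20 neighbours and Leiden resolution 1, then 0.6 within the epithelial-like cells (Python 3.11.15, scipy 1.17.1, leidenalg 0.10.2). Names needed 3 markers in 25% of cells. For epithelial states each of these markers also had to be at least 2-fold above the library's other epithelial-like cells. CPM were computed from UMIs summed over cells; log2 ratios carry 1 added CPM, folds do not, and a call is 2-fold. Intervals are exact (Poisson, conditional binomial, Clopper-Pearson). Only the conditional binomial interval of folds was tested, on simulated Poisson counts. Those counts had no spread between cells, so the test does not cover counts that gather in few cells. Thinning to 2000 UMIs left out 24 p63-KO and 47 WT epithelial-like cells. Named genes are the members, Trp63, Chgb, Gzma, up to 4 per list with the largest ratio between Chgb-positive and double-negative cells from 20 CPM, and the 3 most like each member; others, such as Neurog3 and Cbfa2t3, were named after their values were seen. Members and lists were chosen with earlier results of these data known. Some measured genes are not reported here.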

Additional observations from a re-analysis of the deposited data

How the results depend on the processing

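With 1 library per genotype no library could be left out. No paired analysis was possible because each group has 1 library. Of 56 alternative counts of members called higher, 55 stayed within 1.5 times the reported count. The exception was the count between Chgb-positive and Gzma-positive cells, 3 members at 2-fold and 5 at 1.5-fold, where Insm1 and St18 were added. With 5 CPM added, 4 members in place of 6 were higher in p63-KO than in WT, without Myt1 and Neurod1. Of 336 alternative log2 ratios of single members, 10 turned in sign. In 4 of them the reported ratio was past 2-fold, all between the 12 Gzma-positive and the double-negative cells: Myt1 was at -2.42 in cells with Y-linked RNA only (1 Gzma-positive cell) and at -2.94 in thinned cells, and Runx1t1 was at 1.48 with the split at 1 UMI and at 4.59 with the states in place of the split, an alternative chosen after seeing the data. The other 6 were below 2-fold: between Chgb-positive and Gzma-positive cells St18 ran from -0.97 to 1.12 (reported 0.72) and Prox1 from -0.63 to 1.05 (reported -0.41), and between Gzma-positive and double-negative cells Neurod1 reached 2.26 (reported -0.21). The cause was not tested. Ratios that kept their sign still moved in size. Between Chgb-positive and double-negative cells Runx1t1 ran from 3.62 to 6.56 (reported 4.34), Insm1 from 2.88 to 5.91 (reported 3.68) and Prox1 from 1.90 to 4.51 (reported 2.84). Between p63-KO and WT all ratios kept their sign, with Runx1t1 at 4.11 to 7.58, Insm1 at 2.33 to 5.51 (reported 4.17) and Neurod1 at 0.35 to 2.25. The printed folds are therefore those of the reported settings. Letting the members and listed factors into the clustering left 85 of the 85 Gzma-high, 209 of the 211 Chga-high and 49 of the 50 Sst- and Pyy-high cells in 1 matching state each. Depth limits Neurod1 and Myt1 most, since they rest on 98 and 308 UMIs.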
